A study of Mus musculus with 11 samples.

Results

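The exocrine pancreas makes the enzymes that digest dietary protein and fat, and 10 of its genes were followed here through ribosome footprint libraries of mouse liver. They are the trypsinogens Prss2 (ENSMUSG00000057163) and Try4 (ENSMUSG00000054106), the chymotrypsinogen Ctrb1 (ENSMUSG00000031957), the elastases Cela2a (ENSMUSG00000058579) and Cela3b (ENSMUSG00000023433), and the carboxypeptidases Cpa1 (ENSMUSG00000054446) and Cpb1 (ENSMUSG00000011463). The others are the lipases Pnlip (ENSMUSG00000046008) and Cel (ENSMUSG00000026818) and the lipase cofactor Clps (ENSMUSG00000024225). The genes were taken as a list of Ensembl identifiers, with the symbols given in that list, and all 10 were found among the 22019 genes of the deposited count table. The genes were selected on their levels across these same libraries, so their levels and diet differences are given as description.

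The libraries came from livers of male WT mice fed a High-Fat-High-Sugar (HFHS) diet or chow, with no further treatment given in the labels. Disome footprints, about 60 nt long and left by a ribosome packed against another, were counted in 2 HFHS and 3 chow libraries. Monosome footprints, about 30 nt long and left by single ribosomes, were counted in 3 HFHS and 3 chow libraries. HFHS disome replicate 2 was not analysed here, and the labels state neither the age of the mice nor whether replicates came from separate animals. Libraries are named by the sample barcode of their column. Total counts ran from 235748 to 238837 in HFHS disomes, 147212 to 279331 in chow disomes, 1196240 to 1612324 in HFHS monosomes and 795145 to 1248781 in chow monosomes. Levels are in CPM, the count scaled to the library total. A floor of 3 counts, used as a rough upper limit of a count of 0, was 10.7 to 20.4 CPM in disomes and 1.86 to 3.77 CPM in monosomes.

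Pancreatic acinar cells devote most of their protein synthesis to digestive enzymes, which they store in zymogen granules and release into the gut. Most of the proteases are made as inactive zymogens, and trypsin activates the others once it has itself been cleaved in the intestine. Hepatocytes are not known for making most of these enzymes, and in rodents pancreatic tissue lies close to the liver hilum and the bile duct.

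Footprints of the pancreatic enzymes lay almost entirely in the libraries of a single barcode. The chow libraries AGCTA held 98.9% of the 3801 disome counts and 97.4% of the 23379 monosome counts of the 10 genes. In disomes the 10 genes together took 0.00636% (CTAGA) and 0.00879% (GCATA) of the counts of HFHS libraries, against 2.55% (AGCTA), 0.00122% (ATCGT) and 0.00107% (CGTAA) in chow libraries. In monosomes they took 0.0259% (CTAGA), 0.00125% (GATCA) and 0.0109% (GCATA) in HFHS libraries, against 2.86% (AGCTA), 0.00200% (ATCGT) and 0.00273% (CGTAA) in chow libraries. The high library was thus a chow library in each class, while the remaining chow libraries lay below the HFHS libraries CTAGA and GCATA. Exact 95% binomial intervals ran from 2.47 to 2.64% for the disome library AGCTA and from 2.83 to 2.90% for the monosome library AGCTA, and they cover counting error only. The labels do not say whether libraries that share a barcode across the classes came from the same liver.

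**Figure D1:**
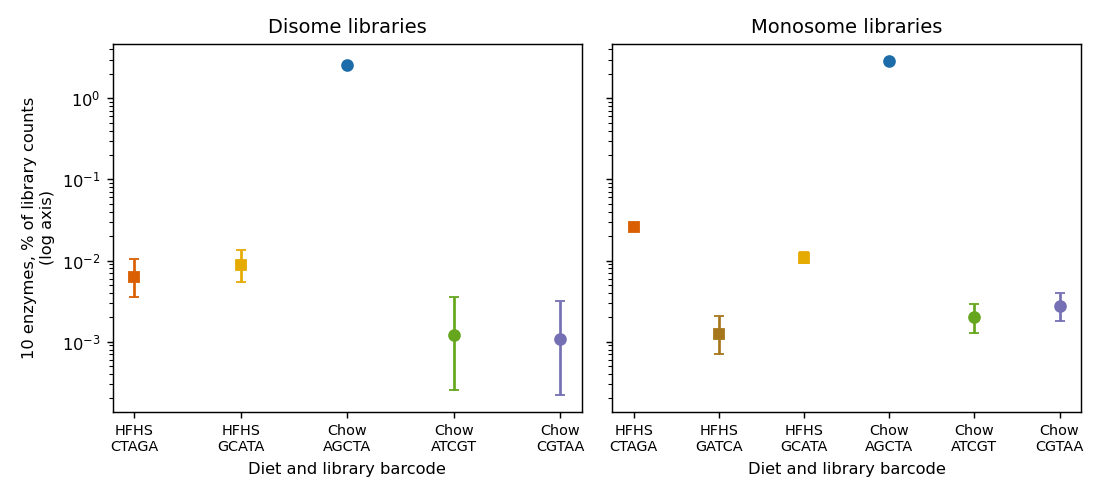
Summed counts of the 10 pancreatic enzymes as a percentage of all counts of each library, on a log axis, with disome libraries on the left and monosome libraries on the right. Squares are HFHS, circles are chow, and bars are exact 95% binomial intervals. The chow library AGCTA lies at 2.55% in disomes and 2.86% in monosomes, and every other library lies below 0.03%.

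The spread within the chow groups therefore came from 1 library. The share averaged 0.00758% ± 0.0017 in HFHS disomes (SD, n = 2) and 0.852% ± 1.47 in chow disomes (n = 3), and 0.0127% ± 0.012 in HFHS monosomes (n = 3) and 0.956% ± 1.65 in chow monosomes (n = 3). Without AGCTA the summed level averaged 75.8 ± 17.2 CPM in HFHS disomes (n = 2) and 11.5 ± 1.06 CPM in chow disomes (n = 2). In monosomes it averaged 127 ± 124 CPM in HFHS (n = 3) and 23.7 ± 5.15 CPM in chow (n = 2). The order of the diets was thus the opposite without AGCTA, and in monosomes the HFHS library GATCA, at 12.5 CPM, lay below both chow libraries. In these bulk libraries, fewer cells of a type and fewer footprints per cell cannot be told apart.

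The trypsinogens showed this pattern on different counts. Prss2, whose product is activated by cleavage to trypsin, had 1 (CTAGA) and 5 (GCATA) disome counts in HFHS libraries, against 337 (AGCTA), 0 (ATCGT) and 1 (CGTAA) in chow libraries. Its monosome counts were 16 (CTAGA), 1 (GATCA) and 15 (GCATA) in HFHS libraries, against 1754 (AGCTA), 0 (ATCGT) and 2 (CGTAA) in chow libraries. AGCTA was far above all other libraries, at 2289 CPM in disomes and 2206 CPM in monosomes, and the diets overlapped. Try4, another trypsinogen, had no disome count in either HFHS library, against 55 (AGCTA), 0 (ATCGT) and 0 (CGTAA) in chow libraries. Its monosome counts were 1 in each of the 3 HFHS libraries, against 148 (AGCTA), 0 (ATCGT) and 1 (CGTAA) in chow libraries. Outside AGCTA it never passed 1 count, so its level there was not distinguishable from 0. Mouse trypsinogens form a family of close copies, and how reads shared between copies were counted is not stated in the labels, so the split between Prss2 and Try4 is uncertain.

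Ctrb1, which encodes the precursor of chymotrypsin, had 4 (CTAGA) and 4 (GCATA) disome counts in HFHS libraries, against 779 (AGCTA), 0 (ATCGT) and 0 (CGTAA) in chow libraries. In monosomes it had 99 (CTAGA), 4 (GATCA) and 41 (GCATA) counts in HFHS libraries, against 6126 (AGCTA), 11 (ATCGT) and 8 (CGTAA) in chow libraries. The level in AGCTA was 5292 CPM in disomes and 7704 CPM in monosomes. The HFHS libraries CTAGA and GCATA came next, at 71.5 and 25.4 CPM in monosomes, and the intervals of the remaining 3 monosome libraries overlapped.

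Both elastases, serine proteases related to chymotrypsin, followed the same order of libraries. Cela2a had 5 (CTAGA) and 5 (GCATA) disome counts in HFHS libraries, against 743 (AGCTA), 1 (ATCGT) and 1 (CGTAA) in chow libraries. In monosomes the counts were 63 (CTAGA), 3 (GATCA) and 42 (GCATA) in HFHS libraries, against 5069 (AGCTA), 5 (ATCGT) and 3 (CGTAA) in chow libraries. The level in AGCTA was 5047 CPM in disomes and 6375 CPM in monosomes, against at most 45.5 CPM in any other monosome library. Cela3b had 1 (CTAGA) and 0 (GCATA) disome counts in HFHS libraries, against 112 (AGCTA), 0 (ATCGT) and 0 (CGTAA) in chow libraries. In monosomes it had 17 (CTAGA), 1 (GATCA) and 8 (GCATA) counts in HFHS libraries, against 946 (AGCTA), 1 (ATCGT) and 1 (CGTAA) in chow libraries. Here too AGCTA was high, CTAGA and GCATA were above 1 count, and the other monosome libraries were not.

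The carboxypeptidases, which trim residues from the C-terminal end of peptides, behaved likewise. Cpa1 had 1 disome count in each HFHS library, against 568 (AGCTA), 1 (ATCGT) and 1 (CGTAA) in chow libraries. Its monosome counts were 41 (CTAGA), 1 (GATCA) and 26 (GCATA) in HFHS libraries, against 2244 (AGCTA), 0 (ATCGT) and 5 (CGTAA) in chow libraries. AGCTA reached 3858 CPM in disomes and 2822 CPM in monosomes. Cpb1, which prefers basic residues, had 2 (CTAGA) and 1 (GCATA) disome counts in HFHS libraries, against 374 (AGCTA), 1 (ATCGT) and 0 (CGTAA) in chow libraries. Monosome counts of Cpb1 were 27 (CTAGA), 2 (GATCA) and 13 (GCATA) in HFHS libraries, against 1480 (AGCTA), 2 (ATCGT) and 1 (CGTAA) in chow libraries. In disomes the libraries outside AGCTA had too few counts of either gene to be ordered.

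The lipid-digesting genes completed the list. Pnlip, the pancreatic triglyceride lipase, had 1 (CTAGA) and 2 (GCATA) disome counts in HFHS libraries, against 464 (AGCTA), 0 (ATCGT) and 0 (CGTAA) in chow libraries. In monosomes it had 45 (CTAGA), 1 (GATCA) and 11 (GCATA) counts in HFHS libraries, against 2437 (AGCTA), 4 (ATCGT) and 1 (CGTAA) in chow libraries. Its level in AGCTA was 3152 CPM in disomes and 3065 CPM in monosomes, with the HFHS libraries CTAGA and GCATA next in monosomes. Clps encodes colipase, the cofactor that anchors pancreatic lipase to bile-salt-covered fat droplets. It had 0 (CTAGA) and 2 (GCATA) disome counts in HFHS libraries, against 30 (AGCTA), 0 (ATCGT) and 0 (CGTAA) in chow libraries. Its monosome counts were 10 (CTAGA), 0 (GATCA) and 3 (GCATA) in HFHS libraries, against 706 (AGCTA), 1 (ATCGT) and 3 (CGTAA) in chow libraries. The diets overlapped for Clps also outside AGCTA, since GCATA and the chow library CGTAA had 3 monosome counts each. This was not particular to Clps. On few counts, the monosome CPM of GATCA lay below that of CGTAA for every other enzyme except Cpb1. Cel, the bile-salt-activated carboxyl ester lipase, had 0 (CTAGA) and 1 (GCATA) disome counts in HFHS libraries, against 297 (AGCTA), 0 (ATCGT) and 0 (CGTAA) in chow libraries. Monosome counts of Cel were 39 (CTAGA), 1 (GATCA) and 15 (GCATA) in HFHS libraries, against 1868 (AGCTA), 1 (ATCGT) and 3 (CGTAA) in chow libraries. All 10 genes had at least 1 count in both AGCTA libraries and in the monosome libraries CTAGA and GCATA. The same held in the chow monosome library CGTAA. Try4 had only 1 count in each of these monosome libraries outside AGCTA. Cela3b, Cpb1 and Pnlip also had only 1 count each in the chow monosome library CGTAA. A count of 1 lies below the floor of 3 counts, so it does not set a level apart from 0.

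**Figure D2:**
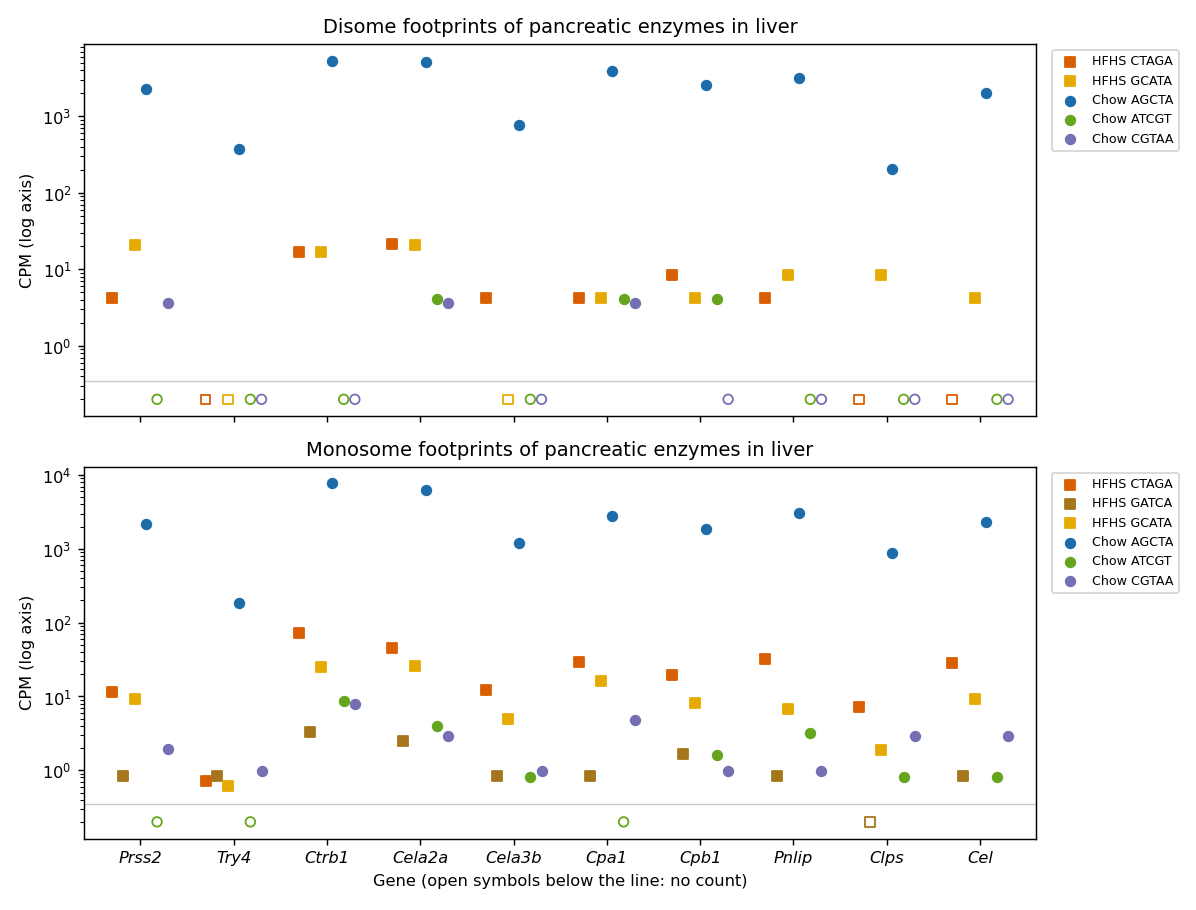
Level of each pancreatic enzyme gene in each library, in CPM on a log axis, for disomes (top) and monosomes (bottom). Squares are HFHS libraries, circles are chow libraries, and open symbols below the grey line are libraries with no count. For every gene the chow library AGCTA lies far above all others, and the HFHS libraries CTAGA and GCATA come next for most genes in monosomes.

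The promoters of these genes were read for letters of the site bound by PTF1, the acinar transcription factor complex, which contacts an E box and a TC box. RefSeq (GRCm38.p6) gave the 250 bases upstream of the start for 9 of the 10 genes, all except Clps. The letters CACCTG or their reverse complement CAGGTG were present in 6 of 9 (Prss2, Try4, Cela2a, Cela3b, Cpb1 and Cel), against 17.2% of 32817 mouse promoter windows of the same length. The letters TTTCCC or GGGAAA were present in 5 of 9 (Prss2, Ctrb1, Cela2a, Cpa1 and Cel), against 21.9% of windows. TATAAA or its complement TTTATA was present in 3 of 9 (Prss2, Try4 and Pnlip), against 12.4% of windows. None of the 3 motifs overlapped another in the windows shown. Both boxes stood somewhere in the windows of Prss2, Cela2a and Cel, against 3.61% of windows, and these 3 are printed because they hold both. The order and spacing of the boxes were not considered. In Cela2a the E box began 218 and the TC box 84 bases before the start. In Prss2 the E box began at 169 and the TC boxes at 110 and 78. In Cel the E boxes began at 170, 154, 134 and 65 and the TC box at 86. Capitals mark matches to the 3 motifs on either strand, and each sequence runs 5′ to 3′ on the gene's strand. A match describes letters in a window and is not evidence of binding.
Prss2, chr6:41521526-41521775, plus strand: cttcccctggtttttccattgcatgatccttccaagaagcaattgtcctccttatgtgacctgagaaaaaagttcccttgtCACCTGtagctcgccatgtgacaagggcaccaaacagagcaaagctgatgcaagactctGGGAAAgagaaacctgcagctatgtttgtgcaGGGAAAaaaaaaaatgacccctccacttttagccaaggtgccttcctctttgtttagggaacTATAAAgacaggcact
Cela2a, chr4:141826006-141826255, minus strand: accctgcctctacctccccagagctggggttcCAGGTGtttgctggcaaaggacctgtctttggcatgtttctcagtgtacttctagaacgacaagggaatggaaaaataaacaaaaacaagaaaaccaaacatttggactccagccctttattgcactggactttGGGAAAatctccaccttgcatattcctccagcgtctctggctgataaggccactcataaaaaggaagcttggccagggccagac
Cel, chr2:28563404-28563653, minus strand: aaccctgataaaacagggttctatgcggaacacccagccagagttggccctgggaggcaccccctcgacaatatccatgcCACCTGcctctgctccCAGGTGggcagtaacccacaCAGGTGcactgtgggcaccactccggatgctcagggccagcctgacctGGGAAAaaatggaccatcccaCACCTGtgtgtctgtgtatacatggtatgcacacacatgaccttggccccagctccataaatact

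The genes themselves lie on several chromosomes. In GRCm38.p6, Prss2 (chr6:41521776-41525079) and Try4 (chr6:41302272-41305533) lie near each other on chromosome 6, which also carries Cpa1 (chr6:30639218-30645361). Cela2a (chr4:141814954-141826005) and Cela3b (chr4:137421008-137430520) lie on chromosome 4, Cel (chr2:28555819-28563403) on chromosome 2 and Cpb1 (chr3:20249479-20275733) on chromosome 3. Ctrb1 (chr8:111686510-111691010), Clps (chr17:28558210-28560766) and Pnlip (chr19:58670365-58681799) lie on chromosomes 8, 17 and 19. All 10 are annotated as protein-coding.

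The enzymes stood in similar proportions in the HFHS monosome libraries CTAGA and GCATA and in the chow library AGCTA. Ctrb1 made up 27.7% of the enzyme counts in CTAGA and 23.4% in GCATA, against 26.9% in AGCTA. Cela2a made up 17.6% in CTAGA and 24.0% in GCATA, against 22.3% in AGCTA. The proportion in AGCTA fell within the exact 95% interval of the proportion in CTAGA for 8 of the 10 genes and within that of GCATA for 9 of 10. These counts of genes depend on interval width and are no measure of likeness. The HFHS library GATCA, with only 15 enzyme counts, gave 10 of 10, and CTAGA and GCATA had 358 and 175 enzyme counts. Prss2, at 4.47% in CTAGA against 7.70% in AGCTA, and Cela2a lay outside in CTAGA, and Cpa1, at 14.9% in GCATA against 9.85% in AGCTA, lay outside in GCATA. Relative to AGCTA, the CPM of single genes was 0.388 to 1.20% in CTAGA and 0.210 to 0.571% in GCATA. The summed enzymes were at 0.903% of their AGCTA level in CTAGA, 0.0438% in GATCA and 0.379% in GCATA among HFHS monosome libraries, against 0.0699% in ATCGT and 0.0953% in CGTAA among chow ones. In disomes they were at 0.249% in CTAGA and 0.344% in GCATA, against 0.0480% in ATCGT and 0.0421% in CGTAA. In both classes the HFHS libraries CTAGA and GCATA thus lay above every library but AGCTA. The libraries were pooled after a barcoded adaptor was ligated, per the labels' protocols, and the part of reads assigned to a wrong barcode in them was not tested.

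**Figure D3:**
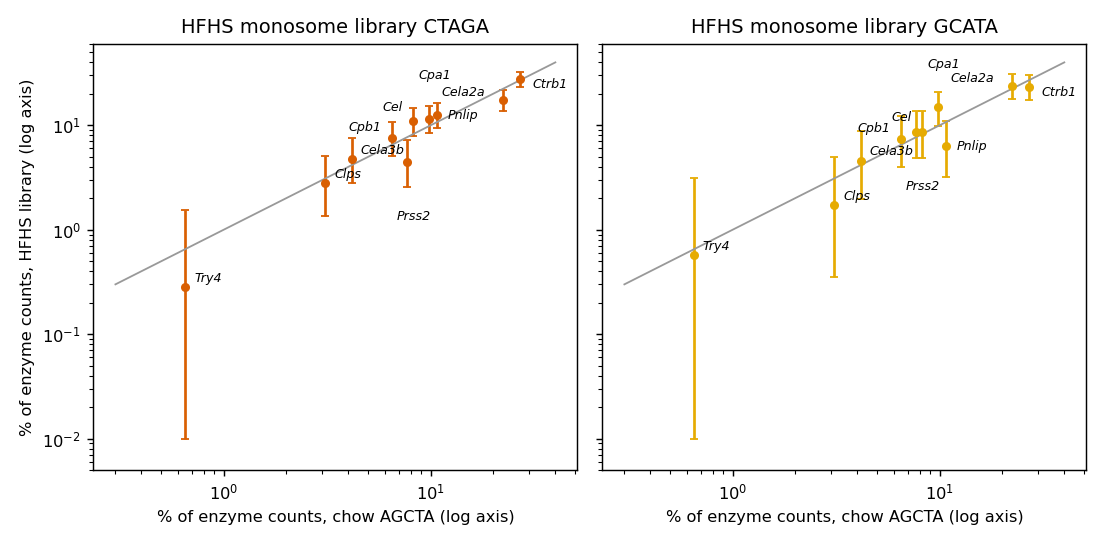
Share of each gene among the counts of the 10 enzymes in the HFHS monosome libraries CTAGA (left) and GCATA (right), against its share in the chow monosome library AGCTA, on log axes. Bars are exact 95% binomial intervals and the grey line marks equal shares. Most genes lie on the line within their interval, with Prss2 and Cela2a below it in CTAGA and Cpa1 above it in GCATA.

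Genes outside the list shared the pattern. Likeness was measured by Pearson's r of log2(CPM + 1) with the summed enzymes over the 11 libraries, among 8156 genes with a mean of at least 5 CPM, and it is a description that the 2 AGCTA libraries largely set. The enzymes had r of 0.94 to 0.99. Another 15 genes had r at least as high as the lowest enzyme, Try4, and the most alike were ENSMUSG00000047517 (r = 0.98) and ENSMUSG00000029882 (r = 0.98), which the files do not pair with names. Over the 9 libraries without AGCTA these values were r = 0.845 and r = 0.81. The enzymes, which are themselves part of the sum, then had r of 0.25 (Try4, with at most 1 count in each of the 9 libraries) to 0.95 (Cela2a). A rule that asks for more than 20 CPM in AGCTA and more than 8 times the highest other library plus 1 CPM, met in both classes, took in 30 genes, the 10 enzymes and 20 unnamed ones. Without AGCTA, r of the unnamed ones ran from -0.36 to 0.845, with no value for 2 genes at 0 in all other libraries. Those 30 were also the 30 with the highest r, and the next gene had r = 0.81, or 0.76 without AGCTA, above that of many of the 30. In monosomes the least extreme of the 30 lay 13.4 times above the highest other library plus 1 CPM, the least extreme enzyme lay 80.5 times above it, and the most extreme gene above 20 CPM outside the set lay 4.02 times above it. The 20 unnamed genes took 1.42% of disome counts and 1.29% of monosome counts in AGCTA, against at most 0.00754% in any other disome library and 0.0118% in any other monosome library. Identifiers of the table were not paired with symbols other than those of the 10 enzymes. Lists of further acinar genes and of islet, duct, intestine, fat, lymphoid and hepatocyte markers were therefore not analysed here, so the liver label was not checked against hepatocyte markers. Whether pancreatic tissue attached to a liver piece entered the lysates was not tested.

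In the comparison of HFHS with chow monosomes, the AGCTA library fixed the direction of the enzymes. With edgeR's quasi-likelihood test, 6754 genes passed the count filter and 4.65% of them were called at an adjusted p of 0.05. Of the 10 enzymes, 5 passed the filter (Prss2, Ctrb1, Cela2a, Cpa1 and Cel), and they did so through AGCTA together with CTAGA and GCATA. Their log2 fold changes, HFHS over chow, lay between -6.57 ± 3.30 (SE, Prss2) and -5.86 ± 3.18 (Cpa1), and 0 of the 5 were called. The median over the 5 was -6.23, against -0.02 over all genes tested. Nothing is read from these values, since the genes were chosen for the level in AGCTA.

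Calls on the enzymes depended on how the spread was estimated. Without robust estimation edgeR called all 5 as lower in HFHS, at adjusted p between 0.0346 and 0.0491, with the same log2 fold changes and SEs of 1.57 to 1.70, where 3.67% of the 6754 genes were called. DESeq2 gave the 5 genes log2 fold changes of -6.66 to -5.92 and no p-value. With no count filter all 10 enzymes were tested in edgeR, all 10 were below 0 (median -6.11) and 0 were called, where 3.05% of 13429 genes were called.

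The direction turned when the chow library AGCTA was left out. With the filter, 6 enzymes were then tested, all 6 were above 0 (median 2.87) and 0 were called, where 2.91% of 7112 genes were called. With no filter all 10 were above 0, from 0.65 ± 1.75 (Try4) to 3.02 ± 0.79 (Prss2), with a median of 2.80. Of these, 3 were called as higher in HFHS, namely Prss2 (adjusted p = 0.00842), Cela3b (adjusted p = 0.0433) and Cpb1 (adjusted p = 0.00206), where edgeR called 2.29% of 13257 genes. The chow side of these 3 rested on 2, 2 and 3 counts in total, and on the HFHS side GATCA had 1, 1 and 2, so the sizes are uncertain. The setting with no filter and without AGCTA was chosen after seeing the data.

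**Figure D4:**
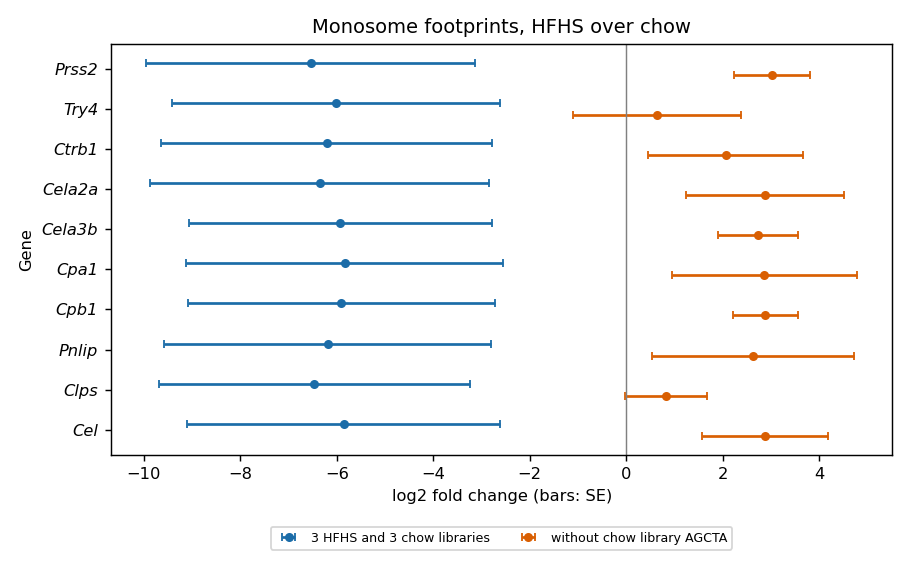
Fitted log2 fold change of each enzyme in monosomes, HFHS over chow, from edgeR with no count filter, with bars of 1 SE. Blue points use the 3 HFHS and 3 chow libraries and orange points leave out the chow library AGCTA. All 10 genes lie below 0 with AGCTA and above 0 without it.

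Disomes gave the same turn on fewer counts. With the filter 2804 genes were tested and 2.96% were called, and 0 of the 10 enzymes passed the filter. With no filter all 10 were below 0 and 0 were called, where 0.489% of 11655 genes were called. Without AGCTA and with no filter, Try4 had no count left, the other 9 were above 0 and 0 were called, where 0.41% of 11470 genes were called. Chow was at 0 for 5 of those 9 (Ctrb1, Cela3b, Pnlip, Clps and Cel), and the other 4 had 1 or 2 counts in chow, so no size is given.

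Leaving the enzyme rows out of the table left the fits of other genes nearly as they were. This step takes out only those rows. It cannot show whether counts of other genes in AGCTA came with the enzymes, which was not tested. Only 5 enzymes were in the monosome fit and 0 in the disome fit, so a small change was largely fixed in advance. In disomes the step could act only through the count filter, with 2835 genes tested against 2804. The number of genes called was 319 without the 10 enzymes in monosomes, against 314 with them, and 81 against 83 in disomes. Without all 30 genes of the AGCTA set, of which 8 were in the monosome fit and 1 in the disome fit, it was 320 in monosomes and 82 in disomes. Shifts of log2 fold changes were taken over genes outside those 30. When the enzymes were left out, they moved by a median of 8.5e-05 in monosomes and 0.0049 in disomes. The largest shifts were 0.0053 and 0.0066. Leaving out the whole AGCTA library moved these log2 fold changes by a median of 0.071 in monosomes and 0.075 in disomes. It left 207 genes called in monosomes and 51 in disomes. Of the 204 genes higher and 110 lower in HFHS monosomes, 117 and 64 were called without it. Of the 51 higher and 32 lower in disomes, 24 and 23 were. Leaving out another chow library gave 142 (CGTAA) and 320 (ATCGT) genes in monosomes, and 41 (CGTAA) and 50 (ATCGT) in disomes. The number called without AGCTA thus lay between those without the other chow libraries in monosomes and above both in disomes.

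The libraries AGCTA allowed the disome level of each enzyme to be set against its monosome level. No enzyme passed the filter when disomes were compared with monosomes over all chow libraries, where 44.9% of 4713 genes were called, so the ratio was read from the AGCTA libraries alone, with 1 library a class and no test. A ratio of 1 means an equal CPM in both classes, and among 1046 other genes with at least 100 monosome counts in AGCTA the median ratio was 0.94, with quartiles of 0.57 and 1.38. The summed enzymes had a ratio of 0.891 (95% counting interval 0.861 to 0.923), close to that median.

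Single enzymes differed from each other beyond counting error. The carboxypeptidases were similar, with ratios of 1.37 (interval 1.24 to 1.50) for Cpa1 and 1.36 (1.22 to 1.53) for Cpb1. Both were above the ratios of Cela2a, at 0.792 (0.732 to 0.855), Cela3b, at 0.639 (0.521 to 0.779), and Ctrb1, at 0.687 (0.637 to 0.740). The intervals of these proteases and the carboxypeptidases did not overlap. Prss2, at 1.04 (0.921 to 1.17), and Pnlip, at 1.03 (0.929 to 1.14), lay between them and did not differ beyond their intervals, and the interval of Cel, at 0.859 (0.757 to 0.971), overlapped both. The ends of the range were Clps and Try4. Clps had 30 disome and 706 monosome counts and a ratio of 0.230 (0.154 to 0.331), with 3.2% of the other genes below it. Try4 had 55 disome and 148 monosome counts and a ratio of 2.01 (1.45 to 2.75), with 91.9% of the other genes below it, and its counts may be shared with other trypsinogens. Of the 20 unnamed genes of the AGCTA set, 12 had at least 100 monosome counts, and their ratios ran from 0.42 to 1.62 with a median of 1.04. Coding lengths were not used here, so levels are not ranked between enzymes. Disome and monosome columns differ in name prefix along with class, so the ratios hold any technical difference between the classes.

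**Figure D5:**
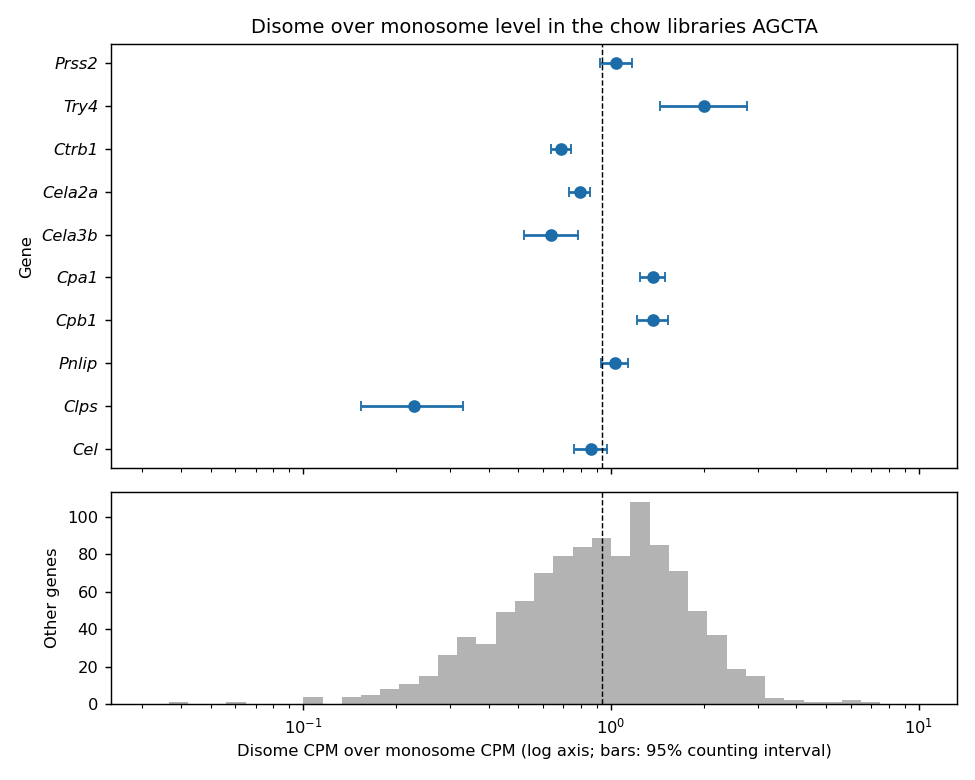
Disome CPM over monosome CPM of each pancreatic enzyme in the chow libraries AGCTA (top, with 95% counting intervals) and of other genes with at least 100 monosome counts there (bottom, number of genes), on a shared log axis. The dashed line is the median of the other genes, 0.94. Clps lies lowest at 0.230 and Try4 highest at 2.01, and 2 other genes with a ratio of 0 are not drawn.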

How the data were processed

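The values deposited by the authors are raw footprint counts per gene, in whole numbers and without normalization, for 22019 genes and 11 libraries. Per the submitters' processing notes, cutadapt 3.5 and Bowtie2 were used. The genome build, the annotation and the use of molecular identifiers are not stated there. Column names gave class, diet and barcode but no replicate number, so each was placed in its group. The members and lists were chosen with earlier results of these data known. Since 0 identifiers of the table occur in the RefSeq gene table (GRCm38.p6, 49997 genes), only the enzymes carry symbols, which matched RefSeq for 10 of 10.

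Counts were divided by library totals for CPM. HFHS against chow in disomes and in monosomes, and disomes against monosomes in chow, were each fitted in edgeR 4.0.16 (R 4.3.3). The fit used filterByExpr at a minimum count of 10, TMM and the robust quasi-likelihood F-test, which is two-sided, with Benjamini-Hochberg adjustment over all genes tested and a threshold of 0.05. The SE was the size of the log2 fold change over the square root of F. The fit was tested on simulated data. Intervals are exact Clopper-Pearson intervals at 95% (scipy 1.17.1), and that of a ratio treats the disome count as binomial among both counts. DESeq2 1.42.0, other filters, no robust estimation, the members left out, each library left out and the barcode as a block were tried as alternatives. The rule for named genes took all members and the 10 other genes most correlated with their sum, of which 2 are printed because none has a symbol. P-values reflect only how much these samples vary, which may be technical.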

Additional observations from a re-analysis of the deposited data

How the results depend on the processing

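The enzymes' monosome diet difference turned its sign without the chow library AGCTA, and single libraries left out moved the log2 fold change from -7.16 to 3.02 for Prss2, from -7.38 to 2.07 for Ctrb1, from -7.11 to 2.88 for Cela2a, from -6.64 to 2.86 for Cpa1 and from -7.09 to 2.88 for Cel. Positive values arose only without AGCTA, at 3.01, 2.06, 2.87, 2.86 and 2.87 with the count filter and at the upper ends given with no filter. With each library left out, genes called higher ranged from 85 to 203 in monosomes (204 with all libraries) and from 20 to 32 in disomes (51), and genes called lower from 57 to 117 in monosomes (110) and from 18 to 26 in disomes (32). DESeq2 called 56 genes lower in monosomes and 16 higher and 10 lower in disomes, and no filter left 21 lower in disomes. With no filter and without AGCTA, chosen after seeing the data, 28 were higher and 19 lower in disomes. A minimum count of 50 left 125 genes higher in monosomes, where 2512 genes were tested. It left 412 higher and 486 lower in disomes against monosomes, where 1436 genes were tested. The cause of these shifts was not tested. With each chow library left out in turn, the mean summed share of the chow group ranged from 0.00115 to 1.28% in disomes. In monosomes that mean ranged from 0.00237 to 1.43%. No paired analysis by replicate number was possible because the columns carry no replicate numbers. With the replicate block by sample barcode, 1145 genes were higher and 1191 lower in disomes against monosomes in chow (1017 and 1097 without it), and no enzyme was tested there. Disome counts outside AGCTA were at most 5 for any enzyme, which limits what can be ordered.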
